A study of Xenopus laevis with 7 samples.

Results

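The lips of experiment 1 are 2 of the 7 libraries in the series, 1 dorsal and 1 ventral, and were set against the 4 lips of experiments 2 and 3, with the side of the lip held constant. They were chosen by the number in their names, which per the file headers marks the experiment, so no measured value was used. A library of whole embryos is headed as experiment 1 too and was read beside the lips as tissue that was not dissected. All libraries come from wild type Xenopus laevis, the African clawed frog, of Nasco stock at stage 10.5, raised in 0.1x Marc's Modified Ringers, and none was treated. The groups are therefore the dorsal and ventral lip of experiment 1 (n = 1 each), the whole embryo of experiment 1 (n = 1), and the dorsal and ventral lips of experiments 2 and 3 (n = 2 each). The labels do not say whether the lips of an experiment came from the same embryos, how many were pooled, or which parents were used. The real unit may therefore be the experiment, 1 against 2, and the p-values rest on how far these particular libraries vary, part of which may be technical. Batch, the exact age of the embryos and their parentage cannot be told apart here. Per the file headers the 4 libraries of experiments 2 and 3 also shared a sequencing lane.

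At stage 10.5 the embryo is an early gastrula, in which cells roll inward over the lip of the blastopore. The dorsal lip is the Spemann organizer, a signalling tissue that secretes BMP and Wnt inhibitors, and the ventral lip is the opposing center of BMP signalling. RNA at this stage is a mixture of messages laid down in the oocyte, which are being degraded, and of zygotic messages, which are accumulating, so levels of both kinds depend on the age of the embryo. The frog carries a doubled genome: most genes have an L copy and many have an S copy on a second set of chromosomes, and wild stocks carry many alleles of both. The suffix .L or .S after a symbol names the copy. A human symbol given as a match was assigned in the file by protein similarity, and reads that fit several related transcripts may be placed on the wrong one.

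The values are RPKM, read counts scaled to transcript length and to the mapped reads of the library. For a transcript of 1 kb a single read amounted to 0.0257 to 0.0369 RPKM. Recovered reads per library ran from 26438016 to 37998991. The organizer genes chordin (chrd, a BMP inhibitor) and goosecoid (gsc, a transcription factor) were high in all 3 dorsal lips, and the BMP-induced genes szl and bambi were high in all 3 ventral lips, as the labels have it. The ventral lip of experiment 1 stood apart from the other ventral lips. Its 13 dorsal lip marker transcripts summed to 72.5 RPKM, against 15.1 and 19.8 RPKM in ventral lips 2 and 3, and 7 of 13 reached 1 RPKM, against 3 of 13 in each of the others. The chordin transcripts contributed at most 0.871 RPKM each in the ventral lip of experiment 1, while frzb.S, picked after its value was seen, had 44.4 RPKM there. Its 12 ventral lip markers were also higher, at 1357 RPKM against 753 and 846 RPKM. Its 13 marginal mesoderm markers summed to 822 RPKM, against 396 and 444 RPKM, and its 8 epidermis markers to 256 RPKM, against 143 and 162 RPKM. The 10 endoderm markers summed to 129 RPKM there, against 105 and 102 RPKM. That sum is mostly sox17a, which was lower in both copies (sox17a.L at 41.4 RPKM against 51.2 and 48.2 RPKM). The GATA4, GATA5 and GATA6 members were all higher, gata6.S at 15.6 RPKM against 1.98 and 2.9 RPKM and gata4.S at 13 RPKM against 2.47 and 3.57 RPKM. The 5 neural ectoderm markers of this lip summed to 412 RPKM, against 1018 and 978 RPKM. This neural sum is mostly SOX3, which was lower in every library of experiment 1. Of the others, sox2.1 was higher, at 14.9 RPKM against 9.15 and 8.5 RPKM, and zic1.L slightly so, at 11.9 RPKM against 10.3 and 9.38 RPKM. zic1.S was lower, at 24.7 RPKM against 33.1 and 32.7 RPKM. The part of these tissue markers in the results was not tested, so counts are also given without that library where it moves them. In bulk tissue, fewer cells of a type and less RNA per cell cannot be told apart.

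Most of the transcriptome differed between the experiments, and it did so alike in both lips. Tested were 16514 transcripts whose mean level in the 6 lips reached 1 RPKM, and 12085 (73.2%) passed limma's moderated test at an adjusted p under 0.05, 4344 (26.3%) higher and 7741 (46.9%) lower in experiment 1. With a change of at least 2-fold as well, 848 (5.14%) were higher and 2156 (13.1%) lower. At the limit of 1 RPKM, echdc2.L was the nearest transcript inside, with a mean of 1.00014 RPKM, and Xelaev18025942m the nearest outside, with 0.999658 RPKM. Both lips of experiment 1 lay above both lips of their own side in 846 of the 848, and below them in 2156 of the 2156. Over all tested transcripts, 31.1% lay above in this way and 52.3% below. The 848 and 2156 were called on these same lips, so their agreement follows largely from the choice. The exceptions, named after their values were seen, were pnhd.L and hoxd1.S, whose dorsal lip of experiment 1 lay between the other dorsal lips (5.94 RPKM against 6.24 and 2.92 RPKM for pnhd.L). The dorsal and the ventral shift correlated across transcripts at a Pearson r of 0.926. This describes the data only, since transcripts are not independent and the lips of an experiment may share embryos.

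**Figure D1:**
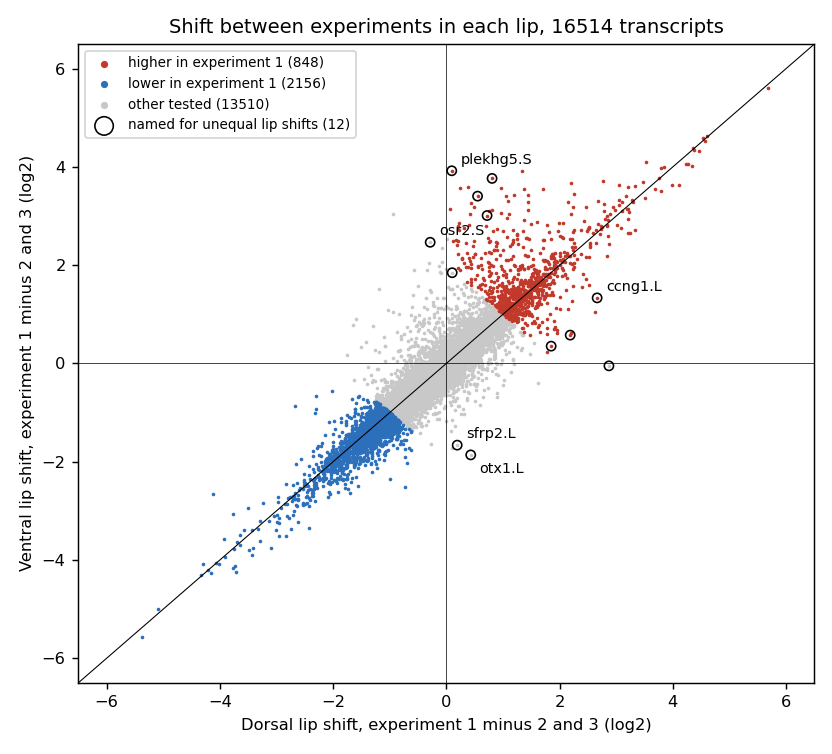
Each point is a transcript, placed by the shift of the dorsal lip (x axis) and of the ventral lip (y axis) of experiment 1 against the same lips of experiments 2 and 3, in log2 units. The 848 higher (red) and 2156 lower (blue) transcripts lie along the diagonal line of equal shift, and circles mark 12 that lie off it.

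The single experiments tell where the difference lies. Experiment 1 minus experiment 2 gave 11978 calls and experiment 1 minus experiment 3 gave 11402, comparisons that share the lips of experiment 1. Experiment 2 minus experiment 3 gave 0 by limma, with 1974 transcripts at an unadjusted p under 0.05, and 0 by voom on the recovered reads, with 2282. A single transcript, Xelaev18039972m, differed by 2-fold between experiments 2 and 3, at -1.03 on the log2 scale, and it was singled out after its value was seen. Of the 848 higher transcripts 806 were called against each of the other experiments, as were 2154 of the 2156 lower ones. The split into higher and lower depends on scaling. The median shift over all tested transcripts was -0.18, and 35.9% of the calls were higher. With median-of-ratios size factors the median was -0.02, the share 48.2% and the 2-fold counts 1150 higher and 1569 lower. With quantile normalization the median was -0.01, the share 49.1% and the counts 1229 and 1206. Medians of gene groups below are therefore read against -0.18.

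A few transcripts were close to absent on one side of the comparison and clearly present on the other. With at least 5 RPKM in every library of one side and under 0.5 RPKM in every library of the other, 15 transcripts were on in the lips of experiment 1 and off in experiments 2 and 3, and 19 were off in experiment 1 and on in experiments 2 and 3. These limits were chosen with the data known, so the members are a description. Tetraspanin, sulfotransferase, globin and histocompatibility families, which have many related copies, are among them. A match to the phospholipid scramblase PLSCR1, Xelaev18000956m, had 26.3 and 23.9 RPKM in the dorsal and ventral lips of experiment 1 and 22.7 RPKM in the whole embryo. In dorsal lip 2 it had 0.0465 RPKM and in the other 3 lips of experiments 2 and 3 it was listed at 0. bhmt.L, the betaine-homocysteine methyltransferase of methionine synthesis, had 12.2 and 12.8 RPKM in the lips of experiment 1 and 13.1 RPKM in the whole embryo, against 0.0889, 0.204, 0.0671 and 0.131 RPKM in dorsal lip 2, ventral lip 2, dorsal lip 3 and ventral lip 3. In both cases the gap between the lips follows from these limits, and the undissected embryos sided with experiment 1.

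The opposite pattern was as sharp, again by the choice of limits. cndp1.L, a dipeptidase that cleaves carnosine, had 0.142 and 0.0705 RPKM in the lips of experiment 1 and 0.0798 RPKM in the whole embryo, against 26.5, 26.7, 25.7 and 26.6 RPKM in the 4 lips of experiments 2 and 3, a shift of -5.47 ± 0.08 (SE) on the log2(RPKM + 0.5) scale. A match to the class II histocompatibility chain HLA-DQA1, Xelaev18000170m, had 0.076 and 0.189 RPKM in the lips of experiment 1 and 0.307 RPKM in the whole embryo, against 19.1, 22.6, 19 and 20.5 RPKM in the lips of experiments 2 and 3. Globin messages showed both directions in neighbouring entries of the table, both matched to the embryonic globin HBZ. Xelaev18045098m had 9.15 and 7.77 RPKM in the lips of experiment 1 and 12.3 RPKM in the whole embryo and was listed at 0 in all 4 lips of experiments 2 and 3. Xelaev18045096m, chosen after its values were seen, had 0.882 and 0.438 RPKM in the lips of experiment 1 and 0.941 RPKM in the whole embryo, against 11.2, 10.8, 11.4 and 13.7 RPKM in the lips of experiments 2 and 3. The lips of experiment 1 were thus high for one entry and low for the other, and reads shared between the entries cannot be told apart.

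The whole embryo shared these states. Of the 15 transcripts on in experiment 1, 11 also had at least 5 RPKM in the whole embryo, and the exceptions, named after their values were seen, were junb.L, junb.1, tspan8.L and LOC100494123-like.L, the last at 4.54 RPKM. Of the 19 that were off in experiment 1, 16 were under 0.5 RPKM in the whole embryo and the highest of the others had 0.955 RPKM. Limits of 3 RPKM and 0.2 RPKM gave 16 and 18 transcripts. By copy, 5 of the 15 carried an L suffix and 2 an S suffix, and of the 19, 9 and 4 did. Of all 16514 tested transcripts, 6600 carried an L and 4609 an S suffix, and the members are too few to tell a difference from that. Where a partner copy is in the table, it did not always move. soat1.L, a cholesterol-esterifying enzyme picked in the same way, had 0.351 and 0.148 RPKM in the lips of experiment 1, against 5.53 to 7.23 RPKM in experiments 2 and 3, while soat1.S had 19.7 and 19.1 RPKM, against 8.61 to 13.8 RPKM. The L copy was thus lower and the S copy higher in the same libraries.

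**Figure D2:**
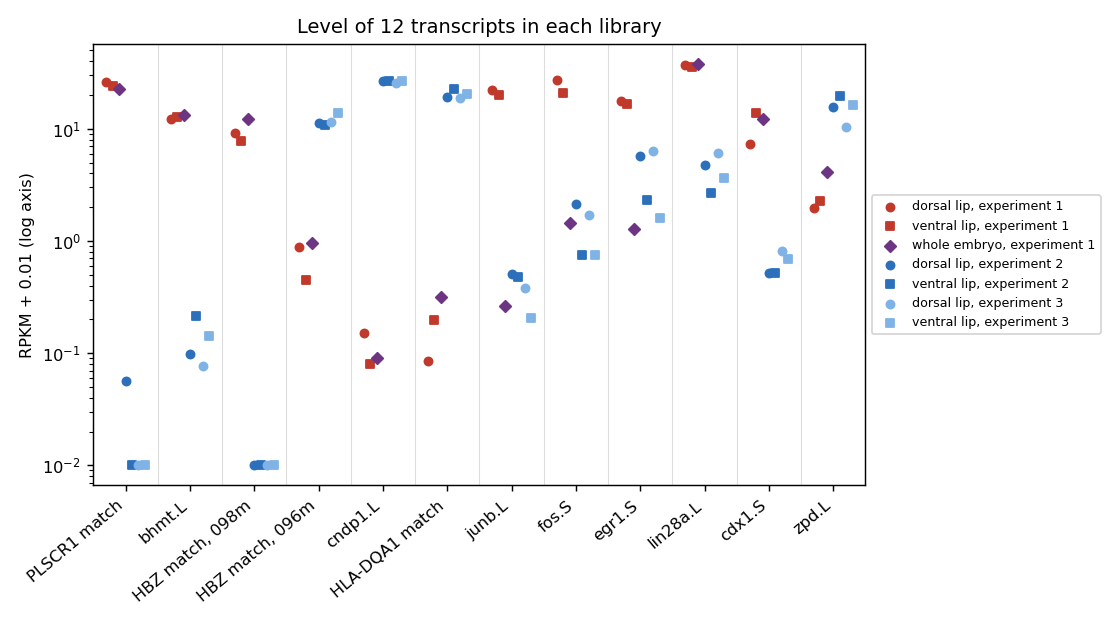
RPKM plus 0.01 on a log axis for 12 transcripts in each of the 7 libraries, experiment 1 left within each column. The 2 globin matches trade places between the experiments, and for junb.L, fos.S and egr1.S the whole embryo (diamonds) lies with experiments 2 and 3 and not with the lips of experiment 1.

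Among the other transcripts with the largest changes were enzymes and receptors with no common function. Higher in both lips of experiment 1 were matches to the sulfotransferase SULT1C4 (Xelaev18001324m, a log2 shift of 4.56), the tyrosine phosphatase PTPN5 (Xelaev18024668m, 4.55), C21orf33 (LOC100490530.L, 4.18) and NXPE4 (LOC100487011.L, 3.89), with limma adjusted p between 1.48e-06 and 6.13e-06. LOC100490530.L had 70.1 and 60.1 RPKM in the lips of experiment 1 and 60.8 RPKM in the whole embryo, against 2.97, 3.27, 3.04 and 3.17 RPKM in the lips of experiments 2 and 3. Lower in both were tcirg1.L, a subunit of the proton-pumping ATPase (-3.93), gpsm1.L, a modulator of G proteins (-3.77), impa2.S, an inositol phosphatase (-3.75), nxpe3-like.S (-4.22), stk33.L, a protein kinase (-4.19), znf365.L (-3.93), and matches to COL7A1, CXCR3 and DEPTOR. For tcirg1.L the lips of experiment 1 had 3.2 and 3.41 RPKM and the whole embryo 3.2 RPKM, against 55.3, 58.7, 55.6 and 59.7 RPKM in the lips of experiments 2 and 3. The lips of a group agreed closely for these transcripts, and each side's values did not overlap the other's. They were chosen for large changes with both lips of experiment 1 beyond the others of their side, so this gap follows from the choice. The shift was nearly unrelated to transcript length (Spearman correlation of -0.13 across transcripts).

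Immediate-early genes, which encode short-lived transcription factors and regulators switched on within minutes of growth signals, stress or wounding, included members that were high in the lips of experiment 1 and low in every other library. Of 118 transcripts on the immediate-early and wound list, 51 passed the filter. Of these, 14 were at least 2-fold higher (27.5%, against 5.14% of all tested) and 3 lower (5.88%, against 13.1%). The filter uses the mean of all 6 lips, so members low in experiments 2 and 3 could pass only through the lips of experiment 1. junb.L did so, with a mean of 0.382 RPKM in experiments 2 and 3. The higher share is therefore no measure of the whole list, and the same filter applies to every list below. junb.L, a subunit of the AP-1 factor, had 22.1 and 19.8 RPKM in the dorsal and ventral lips of experiment 1 and 0.252 RPKM in the whole embryo, against 0.496, 0.47, 0.369 and 0.195 RPKM in the lips of experiments 2 and 3. Its log2 shift was 4.62 ± 0.15 (SE, limma adjusted p = 4.02e-06). The other transcript of that name, junb.1, had 15.2 and 11 RPKM in the lips of experiment 1 and 0.0485 RPKM in the whole embryo, against 0.398, 0.271, 0.282 and 0.122 RPKM. Both lips of experiment 1 were high and the 5 remaining libraries low.

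The AP-1 partner fos followed the same pattern in both copies. fos.S had 27.3 and 20.9 RPKM in the lips of experiment 1 and 1.42 RPKM in the whole embryo, against 2.14, 0.734, 1.7 and 0.746 RPKM in the lips of experiments 2 and 3, and its shift was 3.82 ± 0.15. fos.L had 7.71 and 5.78 RPKM in the lips of experiment 1 and 0.877 RPKM in the whole embryo, against 0.721, 0.647, 0.552 and 0.443 RPKM, a shift of 2.72 ± 0.14. The growth-response factor egr1 was higher too, but it was not uniformly low elsewhere. egr1.L had 23.1 and 18.7 RPKM in the lips of experiment 1 and 2.26 RPKM in the whole embryo, against 8.17 and 8.09 RPKM in the dorsal and 1.38 and 1.23 RPKM in the ventral lips of experiments 2 and 3. Its ventral shift of 3.42 exceeded its dorsal shift of 1.45 (interaction of -1.97, limma adjusted p = 0.0165). btg1.S, an antiproliferative gene, had 350 and 282 RPKM in the lips of experiment 1, against 113 to 137 RPKM in experiments 2 and 3, and its whole embryo value of 293 RPKM lay with experiment 1. The list was not uniform: ier5.L was lower (60.4 and 70 RPKM in experiment 1, against 78.9, 94.3, 86.5 and 95 RPKM), as were 2 matches to the RNA-binding protein ZFP36L1 (Xelaev18022133m, -1.30, and Xelaev18024267m, -1.61) and a match to KLF2 (Xelaev18025217m, -1.16).

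The whole embryo library mostly sided with the lips of experiment 1, but not for several of these genes. Of the 848 transcripts that were 2-fold higher, the whole embryo lay above all 4 lips of experiments 2 and 3 in 797 (94.0%), and of the 2156 lower ones it lay below them in 2106 (97.7%), against 32.2% and 50.7% of all tested transcripts. Its median shift was 1.39 for the higher and -1.19 for the lower transcripts, close to the 1.40 and -1.31 of the lips. Both shifts are taken against the same 4 lips, whose values also chose these transcripts. The closeness and the shares are therefore not independent evidence. Of the 51 higher transcripts in which the whole embryo did not lie above all 4 lips, 6 belong to the 14 immediate-early members. Other lists held such members too, 5 of 8 for organizer genes and 5 of 11 for ventral center and BMP genes. Not all of the 51 parted from the lips of experiment 1 in their shift. The organizer gene frzb.L had a whole embryo shift of 2.12 beside 1.24 in the lips. That shift is taken against the mean of dorsal and ventral lips, which differ widely for this gene. Its whole embryo value of 42.6 RPKM lay just below dorsal lips 2 and 3 (42.8 and 43.8 RPKM) and above ventral lips 2 and 3 (1.51 and 1.99 RPKM). For such a gene the whole embryo shift cannot show which experiment the whole embryo resembles. Others of the 51, named after their values were seen, are 3 matches to IRG1, an enzyme that makes itaconate in activated macrophages of mammals, tspan8.L and g0s2.L, an inhibitor of fat breakdown. The IRG1 match Xelaev18038702m had 7.43 and 6.87 RPKM in the lips of experiment 1 and 0.841 RPKM in the whole embryo, against 1.55, 0.575, 1.47 and 0.469 RPKM in the lips of experiments 2 and 3. tspan8.L had 8.39 and 5.66 RPKM in the lips of experiment 1 and was listed at 0 in the whole embryo, against at most 0.0333 RPKM in the others. Dissected lips of experiment 1 and undissected embryos therefore parted at transcripts such as this IRG1 match and tspan8.L, with 1 whole embryo library and no replicate.

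**Figure D3:**
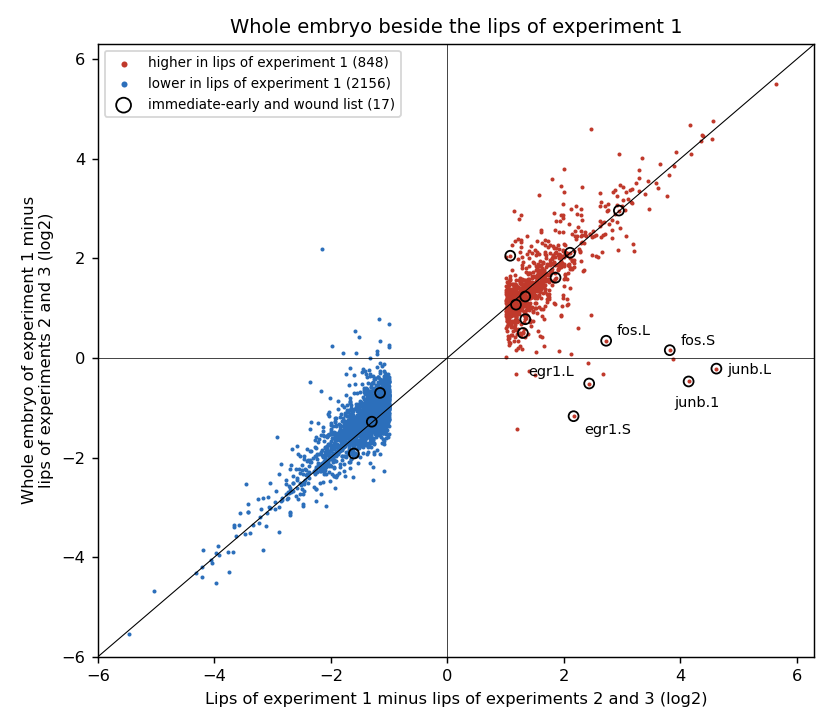
The shift of the lips of experiment 1 (x axis) and of the whole embryo of experiment 1 (y axis), both against the mean of the lips of experiments 2 and 3 in log2 units, for the 848 higher and 2156 lower transcripts. Circles mark the 17 of the immediate-early and wound list; junb, fos and egr1 lie near or below 0 on the y axis.

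The authors' own list of genes raised in both lips over the whole embryo in experiment 1 holds 744 entries, of which 734 were found by name and 77 passed the filter. In the authors' deposited table the ratio of lip to whole embryo was 90.9 in the dorsal and 79.8 in the ventral lip for junb.L, and 19.9 and 14.9 for fos.S. The list was chosen on the lips of experiment 1, so its direction here is not independent evidence. Of the 77, 26 were at least 2-fold higher than in experiments 2 and 3 (33.8%, against 5.14% of all tested) and 11 lower (14.3%, against 13.1%), and the median shift was 0.26.

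Of the messages stored in the oocyte, more were lower than higher in the lips of experiment 1. Of 89 transcripts on the maternal, oocyte and germline list 64 passed the filter, 16 (25.0%) were at least 2-fold lower and 2 (3.12%) higher, against 13.1% and 5.14% of all tested transcripts. At an adjusted p under 0.05 alone 41 (64.1%) were lower and 8 higher, against 46.9% and 26.3% of all tested. The median shift was -0.49, and -0.31 with size factors. The egg envelope gene zpd.L had 1.98 and 2.25 RPKM in the lips of experiment 1 and 4.1 RPKM in the whole embryo, against 15.6, 19.4, 10.4 and 16.4 RPKM in the lips of experiments 2 and 3 (-2.58 ± 0.17, limma adjusted p = 2.83e-05). A match to YBX2, the RNA-packaging protein of germ cells, Xelaev18019673m, had 19.4 and 20 RPKM in the lips of experiment 1 and 13.6 RPKM in the whole embryo, against 49.1, 53.3, 49 and 54.6 RPKM. The match to EIF4ENIF1, which holds maternal messages silent, Xelaev18010480m, had 25.3 and 30 RPKM in the lips of experiment 1 and 24.9 RPKM in the whole embryo, against 65.3, 70.3, 58.4 and 65.6 RPKM. In all of these the lips of experiment 1 lay below every lip of the other experiments.

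Further lower members were chosen after their values were seen. The kinase mos.L, which holds the egg in meiosis, had 3.48 and 3.29 RPKM in the lips of experiment 1, against 13, 12, 8.83 and 10.6 RPKM in the lips of experiments 2 and 3. btg4.S, an adaptor for degrading maternal messages in mammals, had 1.81 and 2.14 RPKM in the lips of experiment 1, against 13.7, 11.7, 7.02 and 11.3 RPKM. A match to SPDYA, an activator of meiotic kinases, Xelaev18024255m, had 4.12 and 3.63 RPKM in the lips of experiment 1, against 29, 27.3, 18.5 and 22.9 RPKM. A germ plasm RNA of the vegetal pole, nanos1.L, departed from the others in the whole embryo. It had 0.511 and 1.23 RPKM in the lips of experiment 1 but 26.1 RPKM in the whole embryo. The lips of experiments 2 and 3 had 3.87, 10.6, 2.13 and 8.77 RPKM. For velo1.L, also lower, the lips of experiment 1 had 8.83 and 11 RPKM and the whole embryo 27.1 RPKM. That value lay within the 21.4 to 47.9 RPKM of the lips of experiments 2 and 3. Higher members included fbxo5.S (29 and 32.6 RPKM in experiment 1, against 9.04 to 11.6 RPKM), an inhibitor of the anaphase-promoting complex, fbxo5.L, a match to NPM2 and a match to CA14. Cyclin A1, the A-type cyclin of the early embryo, was lower in both copies: ccna1.S had 5.68 and 6.7 RPKM in the lips of experiment 1, against 58.6, 56.2, 39.1 and 45.7 RPKM.

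Zinc finger genes with ZNF-type names had a median shift below that of all transcripts. Of 678 listed transcripts 437 passed the filter, 94 (21.5%, against 13.1% of all tested) were at least 2-fold lower and 14 higher. At the adjusted p alone 280 (64.1%, against 46.9%) were lower and 52 (11.9%, against 26.3%) higher. Their median shift was -0.51, with -0.49 in the dorsal lip, -0.52 in the ventral lip and -0.41 in the whole embryo. Matches to ZNF143 (Xelaev18024553m, 5.98 and 5.92 RPKM in the lips of experiment 1, against 25.5, 23, 24.9 and 21.8 RPKM) and ZNF23 (Xelaev18030392m, 17.7 and 24.6 RPKM, against 61.7, 75.7, 57.2 and 68.3 RPKM) were lower. A match to ZNF268, Xelaev18030478m, was higher, with 16.5 and 28.7 RPKM in the lips of experiment 1, against 3.65, 5.55, 3.77 and 6.38 RPKM in the others. Many members of this family are near copies of each other, so values of single members are uncertain.

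**Figure D4:**
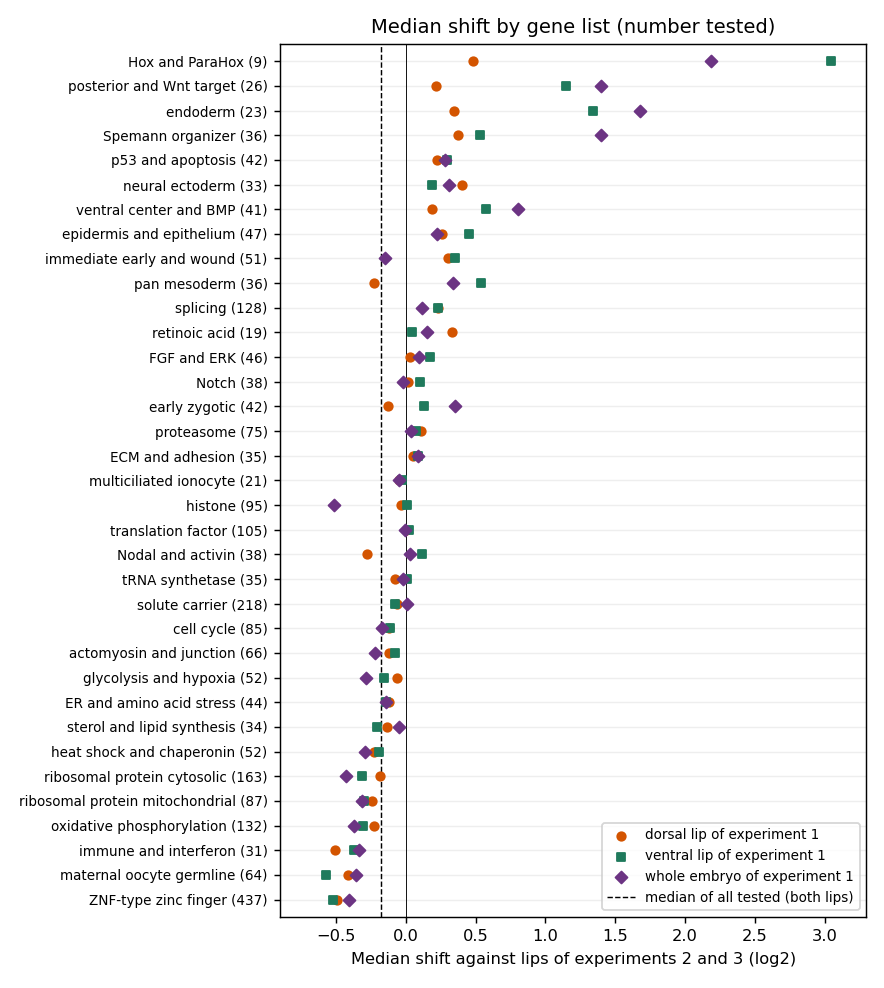
Median log2 shift of the tested members of 35 gene lists for the dorsal lip, the ventral lip and the whole embryo of experiment 1, each against lips of experiments 2 and 3, with the number of tested members in parentheses. Each lip is set against lips of its own side. The whole embryo is set against the mean of both sides, so for genes that differ between the lips its median does not compare like tissue. Hox and ParaHox genes lie highest, at 0.48 in the dorsal and 3.05 in the ventral lip, and for ZNF-type zinc finger genes, last by the median over both lips, all 3 libraries of experiment 1 lie below the median of all transcripts (dashed line, -0.18).

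Among lists of genes that pattern the axis, Hox, posterior, endoderm and organizer genes held more higher than lower members, in counts that fell without the ventral lip of experiment 1. Hox and ParaHox genes specify position from head to tail and begin to be transcribed during gastrulation. Of 91 in the table only 9 passed the filter, so the count is over those that were expressed in at least one group: 7 were at least 2-fold higher and 0 lower, which became 2 higher and 1 lower without the ventral lip of experiment 1. These 7 are 77.8% of the members tested, against 5.14% of all tested transcripts. A filter on the mean favours members that are high in some library. cdx1.S, a caudal-type factor of posterior tissue, had 7.32 and 13.8 RPKM in the dorsal and ventral lips of experiment 1 and 12.3 RPKM in the whole embryo, against 0.513, 0.513, 0.805 and 0.676 RPKM in the lips of experiments 2 and 3 (3.24 ± 0.23, limma adjusted p = 3.62e-05). cdx4.S had 2.08 and 9.8 RPKM in the lips of experiment 1 and 4.38 RPKM in the whole embryo, against 0.761, 0.334, 0.884 and 0.415 RPKM. In both the ventral lip of experiment 1 was the highest of the 6 lips and the dorsal lip the second highest.

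Posterior genes and Wnt targets form a related list, with 42.3% of those tested at least 2-fold higher and 0% lower. The shares of all tested transcripts were 5.14% and 13.1%. Of 26 tested of 66 in the table, 11 were at least 2-fold higher and 0 lower, 3 higher without the ventral lip of experiment 1 and 16 without its dorsal lip. notum.S, an extracellular Wnt inhibitor that Wnt signalling induces, shifted alike in both lips, with 13 and 14.2 RPKM in experiment 1 and 16.8 RPKM in the whole embryo, against 5.4, 5.47, 6.03 and 6.56 RPKM. nkd1.S, an inhibitor inside the cell, was lower, with 6.94 and 11 RPKM in experiment 1, against 14.9, 18.4, 13.8 and 16.2 RPKM. Endoderm genes had 10 of 23 tested members at least 2-fold higher and 1 lower, and 4 higher and 2 lower without the ventral lip of experiment 1. With all lips, 43.5% of the tested endoderm genes were thus at least 2-fold higher and 4.35% lower. gata4.L, a factor of heart and gut endoderm, had 12.6 and 4 RPKM in the lips of experiment 1 and 26 RPKM in the whole embryo, against 4.52, 0.457, 4.25 and 0.53 RPKM. For gata4.L both lips were higher than the same lips of the other experiments, and the whole embryo was highest. The lips did not follow this for the endoderm marker sox17a.L, named after its values were seen. It had 33 and 41.4 RPKM in the lips of experiment 1, against 51.2, 51.2, 26.5 and 48.2 RPKM. An A2M match, Xelaev18034322m, was the lower member, at 0.0343 and 0.0567 RPKM in experiment 1, against 3.79, 4.16, 3.71 and 4.3 RPKM.

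Organizer genes were higher or did not pass: 16 of 36 tested were higher and 0 lower at the adjusted p, 8 by at least 2-fold, which became 5 higher and 1 lower without the ventral and 13 higher and 1 lower without the dorsal lip of experiment 1. cer1.L, the secreted head inducer cerberus, had 47.5 RPKM in the dorsal and 1.81 RPKM in the ventral lip of experiment 1 and 36 RPKM in the whole embryo, against 12 and 11.9 RPKM in the dorsal and 0.0167 and 0.0964 RPKM in the ventral lips of experiments 2 and 3. Its dorsal and ventral shifts were 1.95 and 2.06. admp.S, a BMP-type ligand of the organizer, had 126 RPKM in dorsal lip 1, against 63.8 and 76.2 RPKM in dorsal lips 2 and 3. There frzb.L, a secreted Wnt inhibitor, had 75.4 RPKM against 42.8 and 43.8 RPKM, a dorsal shift of 0.79. Its ventral shift was larger, at 1.68, with 6.69 RPKM in ventral lip 1 against 1.51 and 1.99 RPKM in ventral lips 2 and 3. Of the tested organizer list, 44.4% were higher at the adjusted p and 22.2% by at least 2-fold, against 26.3% and 5.14% of all tested transcripts. Not every organizer gene was higher. gsc.S had 139 RPKM in dorsal lip 1, against 197 and 202 RPKM, and Xelaev18027420m, a chordin match, had 229 RPKM, against 222 and 240 RPKM, and neither passed the test between experiments. The other chordin matches lay above both, Xelaev18029538m with 263 RPKM in dorsal lip 1, against 189 and 225 RPKM, and Xelaev18027421m with 182 RPKM, against 150 and 167 RPKM. The noggin transcripts nog.L and nog.1, named after their values were seen, were lower in dorsal lip 1 than in dorsal lips 2 and 3. There nog.L had 31.3 RPKM, against 41.8 and 44.6 RPKM, and nog.1 had 5.32 RPKM, against 14.8 and 12.37 RPKM.

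Genes of the ventral center and BMP pathway had 11 of 41 tested members at least 2-fold higher and 3 lower, and 6 higher and 3 lower without the ventral lip of experiment 1. msx1.L, a homeobox gene induced by BMP, had 1.19 and 21.5 RPKM in the dorsal and ventral lips of experiment 1 and 9.32 RPKM in the whole embryo, against 0.238 and 0.111 RPKM in the dorsal and 0.841 and 1.1 RPKM in the ventral lips of experiments 2 and 3. A match to the BMP-induced repressor VENTX, Xelaev18036901m, had 45.6 and 197 RPKM in the lips of experiment 1, against 12.9, 76.8, 6.74 and 87.4 RPKM in dorsal lip 2, ventral lip 2, dorsal lip 3 and ventral lip 3. The ligand match BMP7, Xelaev18018155m, had 377 and 585 RPKM in the lips of experiment 1, against 214, 312, 228 and 349 RPKM. id2.S, an inhibitor of bHLH factors, and bmp2.S were lower, at -1.65 and -1.13. Within the list, targets and ligands thus lay on both sides. The 2-fold shares were 26.8% higher and 7.32% lower, against 5.14% and 13.1% of all tested transcripts.

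Mesoderm and Nodal genes did not share a direction. Of 36 pan-mesodermal transcripts tested, 7 were at least 2-fold higher and 3 lower, which became 1 higher and 6 lower without the ventral and 13 higher and 0 lower without the dorsal lip of experiment 1, and the median shift was -0.23 in the dorsal and 0.54 in the ventral lip. With all lips, the 2-fold shares were 19.4% higher and 8.33% lower, against 5.14% and 13.1% of all tested transcripts. t.L, the brachyury factor, had 18.3 and 56.4 RPKM in the lips of experiment 1, against 10.1, 9.29, 11.7 and 18.6 RPKM. Matches to the mix factors of mesendoderm were lower, as for Xelaev18028630m with 33.6 and 38.7 RPKM in experiment 1, against 96.1, 66.7, 70.8 and 67.8 RPKM. Of 42 tested transcripts on the early zygotic list 6 (14.3%) were at least 2-fold higher and 7 (16.7%) lower. foxi2.S, an ectodermal factor on that list, had 2.61 and 3.34 RPKM in the lips of experiment 1, against 16.1, 28.8, 15.1 and 17.7 RPKM. Its RNA may be maternal rather than zygotic, which these levels cannot tell apart. nodal.L, a mesoderm-inducing ligand, had 2.86 and 4.08 RPKM, against 5.51, 16.9, 4.68 and 16.4 RPKM. gs17.S, an early zygotic transcript, was higher, with 89.3 and 83.1 RPKM, against 40.7, 12.3, 34.2 and 13.6 RPKM. Of 38 Nodal and activin transcripts 6 (15.8%, against 13.1% of all tested) were at least 2-fold lower and 1 (2.63%, against 5.14%) higher. The lower ones included both smad2 copies, which carry the signal to the nucleus (smad2.L had 3.2 and 3.69 RPKM in experiment 1, against 10.8, 13.2, 8.11 and 10.7 RPKM).

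Signalling receptors and ectodermal genes gave further named changes. In the FGF and ERK list 8 of 46 tested were at least 2-fold higher and 2 lower, 5 higher without the ventral and 12 without the dorsal lip of experiment 1. With all lips, the 2-fold shares of this list were 17.4% higher and 4.35% lower, against 5.14% and 13.1% of all tested transcripts. fgfr2.L, an FGF receptor, had 11.3 and 9.02 RPKM in the lips of experiment 1, against 4.04, 3.63, 4.51 and 3.8 RPKM. Of 33 neural ectoderm transcripts 10 (30.3%) were at least 2-fold higher and 1 (3.03%) lower. irx2.S had 8.5 and 5.87 RPKM in the lips of experiment 1, against 2.81, 1.89, 3.39 and 2.08 RPKM. Matches to SOX3, a factor of early neural and pluripotent ectoderm, were lower: Xelaev18038842m had 159 and 132 RPKM in experiment 1 and 90.3 RPKM in the whole embryo, against 316, 380, 325 and 366 RPKM. A match to ZIC2, Xelaev18013114m, was also lower, with 30.3 and 12 RPKM in experiment 1, against 49.1, 31.7, 43 and 26.6 RPKM. gmnn.S was lower too, at -0.26 on the log2 scale. The neural list thus held members in both directions, 15 higher and 5 lower at the adjusted p. The pluripotency-linked RNA-binding protein lin28a was higher in both copies, lin28a.L having 36.9 and 35.5 RPKM in experiment 1 and 37.8 RPKM in the whole embryo, against 4.7, 2.68, 6.11 and 3.62 RPKM.

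In the epidermal and epithelial list 7 of 47 tested transcripts were at least 2-fold higher (14.9%, against 5.14% of all tested) and 4 lower (8.51%, against 13.1%). The sum of epidermis markers was also higher in the ventral lip of experiment 1, and its part was not tested. Uroplakin matches of the outer cell layer were higher, Xelaev18035424m (UPK2) having 291 and 280 RPKM in the lips of experiment 1 and 281 RPKM in the whole embryo, against 122, 126, 137 and 140 RPKM. Matches to the secreted lectin ITLN2 were lower, Xelaev18005062m having 18.2 and 19.1 RPKM in experiment 1, against 78.2, 77.7, 66.5 and 79 RPKM. tfap2e.S had 0.0829 and 0.153 RPKM in experiment 1, against 4.51, 4.54, 2.88 and 3.91 RPKM. The list thus held both directions. Notch genes had 7 of 38 higher and 1 lower by 2-fold (4 higher without the ventral and 11 without the dorsal lip of experiment 1), retinoic acid genes 3 of 19 each way, and ciliated cell and ionocyte genes 3 of 21 higher and 1 lower. With all lips, the 2-fold shares were 18.4% higher and 2.63% lower for Notch and 15.8% each way for retinoic acid. For ciliated cells and ionocytes they were 14.3% and 4.76%. aldh1a2.S, which makes retinoic acid, had 16.3 and 13.3 RPKM in experiment 1, against 6.28, 3.92, 5.63 and 3.61 RPKM.

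Genes of the p53 response and cell death were more often higher than lower. Of 42 tested, 22 were higher and 11 lower at the adjusted p (52.4% and 26.2%, against 26.3% and 46.9% of all tested). By at least 2-fold 8 were higher and 2 lower (19.0% and 4.76%, against 5.14% and 13.1%). Effector caspases were among the higher genes: casp6.L had 32.5 and 30.4 RPKM in the lips of experiment 1 and 36.1 RPKM in the whole embryo, against 14.3, 13.8, 15.1 and 13.9 RPKM. plk2.L, a kinase gene that p53 activates, had 13.4 and 11 RPKM in experiment 1 and 6.41 RPKM in the whole embryo, against 1.91, 3.21, 1.91 and 3.45 RPKM. casp10.L, mdm4.S and both tnfrsf10b copies were lower, with tnfrsf10b.L, a death receptor, at -1.41. Of 31 immune and interferon transcripts tested of 138, 7 (22.6%, against 13.1% of all tested) were at least 2-fold lower. Only trim29.L was at least 2-fold higher (3.23%, against 5.14%). irf7.L, a factor of the interferon response, had 1.03 and 1.15 RPKM in experiment 1, against 4.32, 4.52, 4.17 and 4.38 RPKM.

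Cell cycle genes were split. Of 85 tested, 8 (9.41%, against 5.14% of all tested) were at least 2-fold higher and 12 (14.1%, against 13.1%) lower. Their median shift of -0.12, which turned to 0.05 with size factors, lay near that of all transcripts. The late-cycle regulators ccnb3.S (95.9 and 81.7 RPKM in experiment 1, against 29.4, 21.7, 35.1 and 26.5 RPKM), ccnb3.L and the spindle checkpoint gene mad2l1.S were higher. The phosphatase cdc25a.L, which drives the rapid cleavage cycles, had 33.8 and 40.5 RPKM in the lips of experiment 1 and 29.8 RPKM in the whole embryo, against 106, 124, 107 and 115 RPKM. The replication helicase subunit mcm4 was lower in both copies, while mcm7.1 was higher at 0.55.

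In the machinery common to all cells most changes were small. Of 128 splicing transcripts tested, 68 were higher and 12 lower at the adjusted p (53.1% and 9.38%, against 26.3% and 46.9% of all tested). Only 3 were higher by 2-fold (2.34%, against 5.14%), and the median was 0.22. An SNRPA1 match, Xelaev18018419m, of the U2 particle, had 196 and 172 RPKM in the lips of experiment 1, against 97.1, 87.8, 102 and 93.7 RPKM. The cytosolic ribosomal protein list had 22 of 163 higher and 94 lower (13.5% and 57.7%, against 26.3% and 46.9% of all tested). At least 2-fold lower were 1.84%, against 13.1%, and the median was -0.24 beside the -0.18 of all transcripts. The list also holds rps6kc1.S, its 1 member at least 2-fold higher, rps19bp1.L and a match to RPS6KB1, which are not ribosomal proteins. Mitochondrial ribosomal proteins had 15 of 87 higher and 49 lower (17.2% and 56.3%) with a median of -0.29, mrpl3.L having 1.6 and 1.68 RPKM in experiment 1, against 11.2, 9.74, 12 and 10.1 RPKM. Of 132 oxidative phosphorylation transcripts 28 were higher and 72 lower (21.2% and 54.5%), shares near those of all tested transcripts, with 4 and 16 by 2-fold and a median of -0.30. atp5h.S, of the ATP synthase, had 9.39 and 10.3 RPKM in experiment 1, against 30.9, 29.6, 30.8 and 30.8 RPKM, while ndufs1.S, of complex I, was higher, at 1.61 on the log2 scale. These subunits, of different complexes, thus shifted in opposite directions.

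Proteasome genes had 30 of 75 higher and 18 lower with 0 and 2 by 2-fold, translation factors 39 and 37 of 105 with 0 and 5, tRNA synthetases 11 and 9 of 35 with 1 each, and histones 31 each of 95 with 5 and 2. The higher shares of these lists at the adjusted p were 40%, 37.1%, 31.4% and 32.6%, above the 26.3% of all tested. Their lower shares were 24%, 35.2%, 25.7% and 32.6%, below the 46.9% of all tested. psma6.L, a proteasome core subunit, had 7.87 and 7.99 RPKM in the lips of experiment 1, against 38.1, 39.4, 37.9 and 36.6 RPKM. The histone median was 0.03 in the lips of experiment 1 and -0.52 in the whole embryo. Heat shock and chaperonin genes had 14 of 52 higher and 28 lower (0 and 3 by 2-fold), endoplasmic reticulum and amino acid stress genes 9 and 18 of 44 (0 and 2), sterol and lipid synthesis 5 and 14 of 34 (0 and 5), and glycolysis and hypoxia genes 15 and 23 of 52 (5 and 4). In that order 26.9%, 20.5%, 14.7% and 28.8% were higher and 53.8%, 40.9%, 41.2% and 44.2% lower at the adjusted p. By 2-fold 0%, 0%, 0% and 9.62% were higher and 5.77%, 4.55%, 14.7% and 7.69% lower. hspa8.L, the constitutive chaperone, had 398 and 358 RPKM in experiment 1, against 200, 174, 199 and 195 RPKM. The prolyl hydroxylase egln3.L, an oxygen sensor, had 12.2 and 15.1 RPKM, against 2.95, 3.58, 2.8 and 2.8 RPKM. Actomyosin and junction genes gave 1 of 66 higher (1.52%) and 4 lower (6.06%) by 2-fold. Extracellular matrix and adhesion genes gave 5 of 35 each way (14.3%), and solute carriers 18 of 218 higher (8.26%) and 22 lower (10.1%). lamb1.S, a laminin chain, had 1.67 and 1.17 RPKM in experiment 1, against 11.4, 11.6, 12.8 and 12 RPKM, while itga4.L, an integrin, had 2.99 and 3.81 RPKM in experiment 1 and 8.13 RPKM in the whole embryo, against at most 0.00586 RPKM.

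L and S copies as classes had similar shares of shifted transcripts. Of 6600 tested L transcripts 4.68% were at least 2-fold higher and 12.2% lower, and of 4609 S transcripts 4.62% and 13.5%, with medians of -0.16 and -0.19. Copies of 1 gene more often shifted the same way than in opposite ways at the adjusted p, but many shifted by different amounts. Of 2945 pairs with both copies tested, 747 had at least 1 copy past 2-fold: both were higher in 51 and both lower in 147, while in 79 the L copy alone and in 66 the S copy alone was higher, and in 186 the L copy alone and in 211 the S copy alone was lower. Both copies passed 2-fold in opposite directions in 7 pairs. Among all these pairs 4.55% of L and 4.07% of S copies were at least 2-fold higher, and 11.4% and 12.3% lower. A pair with 1 copy alone past 2-fold need not differ between its copies. At the adjusted p alone, the L copy was higher and the S copy lower in 196 pairs, and the reverse held in 155. Both copies were higher in 433 pairs and lower in 925 by that measure. The shifts of L and S copies correlated across pairs at a Pearson r of 0.531. The 0.926 between the lips is over all tested transcripts, a different set. The test of the difference between copies gave 2006 calls (68.1%), and in 211 pairs (7.16%) the L shift was at least 2-fold above the S shift and in 158 (5.37%) below it.

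Pairs that moved together included fos, lin28a, egr1, the creatine synthesis enzyme gatm, cer1 and msx1 on the higher side. gatm.L had 232 and 128 RPKM in the lips of experiment 1 and 175 RPKM in the whole embryo, against 41.4, 13.8, 60.2 and 16.4 RPKM, and gatm.S had 7.9 and 6.12 RPKM, against 1.58, 0.527, 2.59 and 0.826 RPKM. On the lower side were arhgef11-like, kiaa0922-like, plcl2, the glycolytic enzyme pgam1 and ccna1. Both copies of these genes thus differed between the experiments in 1 direction.

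Pairs that parted held a copy with a small difference between the experiments beside a copy with a large one. impa2.L had 187 and 185 RPKM in the lips of experiment 1, against 171, 175, 177 and 180 RPKM, while impa2.S had 2.56 and 3.48 RPKM, against 46.2, 45.8, 46.4 and 47.7 RPKM (difference of 3.83 ± 0.11, limma adjusted p = 7.51e-06). dlst.L, of the citric acid cycle, had 73.9 and 67.3 RPKM in experiment 1, against 77, 73.8, 78.4 and 72.1 RPKM, while dlst.S had 26.9 and 28.4 RPKM, against 1.54, 1.68, 1.51 and 1.54 RPKM. stk33.S had 11.3 and 12.3 RPKM in experiment 1, against 18.2, 18.3, 18.3 and 18.3 RPKM, while stk33.L had 0.109 and 0.19 RPKM, against 10.9 RPKM or more. The mitochondrial thioredoxin txn2.L had 1.06 and 0.615 RPKM in experiment 1, against 17.2, 14.9, 16.7 and 15 RPKM, beside txn2.S with 26.7 and 27.4 RPKM, against 32.8, 30.7, 29.8 and 31.9 RPKM. The larger change lay in impa2.S, dlst.S, stk33.L and txn2.L, while stk33.S was also lower, at -0.61 on the log2 scale. The other pairs with the smallest p were nxpe3-like, naa38-like, plekhj1, slc8a3-like and ppp1r21-like with the L shift above the S shift, and rps6kc1, sgk3 and epb41l4a with the L shift below it.

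**Figure D5:**
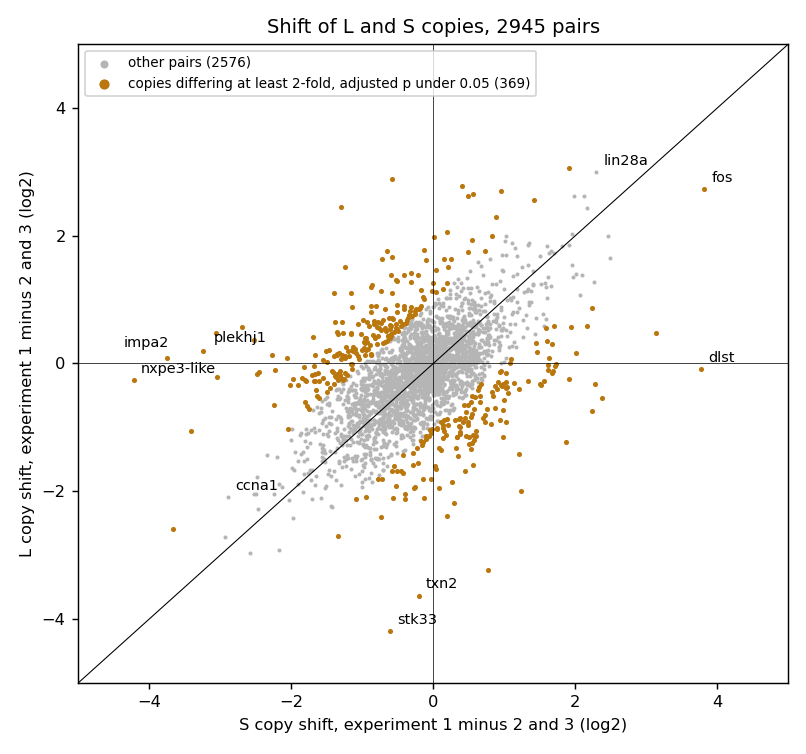
Each point is a gene with an L and an S copy, placed by the log2 shift of its S copy (x axis) and of its L copy (y axis) between experiment 1 and experiments 2 and 3. Of 2945 pairs, 369 (brown) differ by at least 2-fold between copies; those on an axis, such as impa2 and dlst, have 1 copy that shifted and 1 near 0.

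The 7 pairs with copies past 2-fold in opposite directions, named after their values were seen, were amotl1, cnep1r1, dpm1 and nck2 with L higher, and bves, cacybp and etaa1 with S higher. dpm1.L, a subunit of the enzyme that makes dolichol phosphate mannose, had 11.4 and 10.8 RPKM in the lips of experiment 1 and 11.3 RPKM in the whole embryo, against 2, 1.54, 1.18 and 1.89 RPKM. The shift of dpm1.L was 2.45 and that of dpm1.S -1.31. The chaperone partner cacybp.L had 3.25 and 3.23 RPKM in experiment 1, against 8.82, 9.11, 10.5 and 9.67 RPKM, while cacybp.S had 35.7 and 34.6 RPKM, against 15, 15.2, 14.8 and 15 RPKM.

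For some transcripts the dorsal and the ventral lip shifted unequally. The interaction of experiment and side gave 107 calls by limma (0.648%), 91 with the ventral shift above the dorsal one (0.551%) and 16 with the dorsal shift above the ventral one (0.0969%), and 0 without the variance trend, with 950 transcripts at an unadjusted p under 0.05. Experiment 1 has 1 lip per side, so the spread in this test comes from experiments 2 and 3 alone. A match to KAZALD1, a secreted protein related to insulin-like growth factor binding proteins, Xelaev18003703m, had 182 and 43.2 RPKM in the dorsal and ventral lips of experiment 1 and 132 RPKM in the whole embryo, against 100 and 108 RPKM in the dorsal and 2.6 and 2.83 RPKM in the ventral lips of experiments 2 and 3. The dorsal lip exceeded the ventral lip in every experiment, by a smaller ratio in experiment 1. otx1.L, a head factor, had 6.33 and 1.17 RPKM in the lips of experiment 1, against 4.68, 6.06, 4.47 and 5.15 RPKM, so that its ventral level was lowest in experiment 1. The p53 target ccng1.L had 29.5 and 26.2 RPKM in the lips of experiment 1 and 18.7 RPKM in the whole embryo, against 4.26 and 4.23 RPKM in the dorsal and 9.49 and 10.8 RPKM in the ventral lips of experiments 2 and 3.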

How the data were processed

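PolyA RNA of 7 libraries (6 lips and 1 whole embryo) was sequenced on an Illumina instrument. The authors deposited RPKM values per transcript, per the file headers, in a table of 44421 transcripts that matches human symbols to transcripts. TopHat2 2.09 and DESeq are named in the submitters' processing notes, with no role given, and how reads that fit several transcripts were counted is not given in the sources used here. A second table gives the authors' deposited ratio of each lip of experiment 1 to the whole embryo. Groups follow the lip side and number in the sample labels.

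For 35325 of 35326 transcripts above 0, every RPKM was a whole multiple of 1 read within 0.001, so reads were recovered for a voom fit. Linear models with moderated variances (limma 3.58.1, R 4.3.3, with a variance trend, two-sided) were fitted to log2(RPKM + 0.5) with lip side as covariate. Transcripts were tested when their mean level in the 6 lips reached 1 RPKM, with Benjamini-Hochberg adjustment over all tested transcripts at 0.05. Fold changes on this scale understate the change of low transcripts. The fit was tested on simulated data with known fold changes. The lips of an experiment correlated at 0.132 after the fit (consensus within-experiment correlation).

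The members and the 35 gene lists were chosen with earlier results of these data known. Named genes are the 12 with the largest change each way that have a symbol and both lips beyond the others, up to 4 called members per direction of each list with the smallest p, 6 pairs of copies per class, 6 interaction calls per direction and the label checks, and any others are said to be chosen after their values were seen. The 2-fold rule, the limits for transcripts on or off, counts of list members without a lip or with size factors, and voom between single experiments were added after seeing the data. Figures were drawn with matplotlib 3.10.9 in Python 3.11.15. A few members that the rule names are not reported here.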

Additional observations from a re-analysis of the deposited data

Results flagged for a closer look

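For 107 transcripts the shift of the dorsal lip differed from that of the ventral lip by limma's interaction term, and the 6 with the smallest p in each direction are given here, each with its dorsal minus its ventral shift on the log2 scale. The ventral shift was above the dorsal one for Xelaev18003703m, matched to the secreted protein KAZALD1 (-2.96), for Xelaev18003702m, which has no human match (-2.85), for the zinc finger factor osr2.S (-2.75), for a match to the membrane-bound ligand EFNB2, Xelaev18013082m (-2.29), for plekhg5.S (-3.83) and for the stress kinase plk3.L (-1.74). plekhg5.S had 22.8 and 10.5 RPKM in the dorsal and ventral lips of experiment 1 and 39.6 RPKM in the whole embryo, against 22.1 and 20.5 RPKM in the dorsal and 0.135 and 0.328 RPKM in the ventral lips of experiments 2 and 3. The dorsal level in experiment 1 lay just above those of the other dorsal lips, while the ventral level lay far above those of the other ventral lips.

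The dorsal shift was above the ventral one for 2 matches to ID3, an inhibitor of bHLH factors, Xelaev18012086m (1.61) and Xelaev18015089m (1.5), for a match to the secreted Wnt inhibitor SFRP5, Xelaev18024021m (2.92), for the head factor otx1.L (2.29), for the Wnt inhibitor sfrp2.L (1.85) and for ccng1.L (1.33). In otx1.L and sfrp2.L the larger change was the ventral one, downward, at -1.86 and -1.66. Xelaev18024021m had 18.4 RPKM in the dorsal lip of experiment 1, was listed at 0 in the ventral lip and had 4.68 RPKM in the whole embryo, against 1.77 and 2.45 RPKM in the dorsal and 0.0224 and 0.013 RPKM in the ventral lips of experiments 2 and 3. sfrp2.L had 26.5 and 4.81 RPKM in the lips of experiment 1 and 10.3 RPKM in the whole embryo, against 20.8, 17, 25.8 and 15.6 RPKM in the lips of experiments 2 and 3. The ventral lip of experiment 1 also held more RNA of dorsal lip, marginal mesoderm, epidermis and GATA endoderm markers than the other ventral lips. The part of these markers in these values was not tested.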

How the results depend on the processing

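Each alternative changed 1 choice. With a mean of at least 5 RPKM required, 7831 transcripts were called, 394 higher and 1148 lower by 2-fold, with 7737 calls against experiment 2, 7437 against experiment 3 and 1265 pairs of copies, since fewer were tested. Without a filter 3024 pairs were called. Quantile normalization left 1206 lower by 2-fold. Leaving out 1 library at a time gave 9872 to 12317 calls, 768 to 924 higher and 1978 to 2362 lower by 2-fold, and 1601 to 1994 pairs. The experiment as a random replicate block gave 11699 calls and 2071 pairs, and the lip mean per experiment, 1 value against 2, gave 11241. The interaction calls were the least stable: 966 without a filter, 48 with quantile normalization, 0 without the variance trend, 201 with voom, 286 with a fixed replicate block, and 146 to 209 with 1 library left out, 193 without dorsal lip 3, 196 without dorsal lip 2 and 209 without ventral lip 3. The cause was not tested.

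Of the values of single genes, pairs and lists, 6940 kept their direction and side of the threshold, 168 fell short of it, 34 passed it, 16 medians moved and 22 turned. With quantile normalization nxpe3-like.L was at 0.16 and impa2.L at -0.14, and medians relative to all transcripts were -0.0302 for endoplasmic reticulum stress, -0.00987 for glycolysis and -0.13 for the cell cycle. With size factors dlst.L was at 0.079 and the heat shock median at 0.0055. epb41l4a.S was at -0.0929 without experiment 3. With 1 lip left out, mainly a lip of experiment 1, shifts ran from -0.287 to 2.46 for osr2.S, -0.0501 to 2.87 for Xelaev18024021m, -1.86 to 0.429 for otx1.L, -1.66 to 0.19 for sfrp2.L, -0.515 to 0.772 for gsc.S, -0.172 to 1.34 for gsc.L, -0.0134 to 0.189 for Xelaev18027420m, -1.65 to 0.772 for szl.S, -0.619 to 0.991 for szl.L and -0.0493 to 0.185 for epb41l4a.S. With voom gsc.S was at -0.415, gsc.L at -0.0714 and szl.S at 0.455. Transcripts near 1 RPKM rest on few reads.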
